A study of Mus musculus with 4 samples.

Results

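The genes described here encode the enzymes that make serine and pass its carbon to folate. They were chosen by symbol: Phgdh, Psat1 and Psph for serine synthesis, Shmt2, Mthfd2, Mthfd2l, Mthfd1l and Aldh1l2 for the mitochondrial folate arm, and Shmt1 and Mthfd1 for the cytosolic folate arm. All 10 were found among the 54232 genes of the count table, and 9 passed the filter on low counts. The measured cells were RPP631, a line of mouse small cell lung cancer (SCLC). They were kept for 48 h either with YKL at 100 nM, a compound that the study presents as an inhibitor of the transcription and cell cycle kinase CDK7, or with the vehicle DMSO. Each group held 2 bulk RNA-seq libraries, and the question was how transcript levels differ after the inhibitor. The labels name 1 line, without its genotype, and do not say whether each replicate was its own culture, and the p-values may therefore reflect technical spread alone.

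Serine is made from the glycolytic intermediate 3-phosphoglycerate in a short chain of reactions. Serine hydroxymethyltransferases then move a carbon from serine onto tetrahydrofolate, either in the mitochondrion or in the cytosol. The mitochondrial route usually runs towards formate, which leaves the organelle and is used in the cytosol for purine, thymidylate and methyl group synthesis. Several of these genes are known targets of the stress-responsive transcription factor ATF4, and the pathway is active in many proliferating tumour cells.

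The libraries held 29817387 and 32956564 assigned counts in YKL and 34189709 and 31082753 in DMSO. Of the 16749 genes tested, 242 were lower in YKL and 351 were higher. The neuroendocrine SCLC markers (Chga, Syp, Ncam1, Uchl1, Calca, Insm1 and Nkx2-1) were all detected, and they summed to 2704 and 2687 CPM (library-scaled counts, defined below) in YKL libraries, against 2925 and 2927 CPM in DMSO libraries. Marker sets of fibroblasts, leukocytes and endothelium summed to between 1.17 and 7.83 CPM in any library. Of the leukocyte markers, Cd3e, the T cell marker, had 0 counts in every library. Ptprc had 25 and 23 counts in YKL libraries and 0 and 2 counts in DMSO libraries. Lyz2 had 142 and 99 counts in YKL libraries and 53 and 68 counts in DMSO libraries, and Cd68 overlapped between groups. The neuroendocrine sum was lower in both YKL libraries, but its genes went in different directions. Chga, a granule protein gene and the largest of them in YKL, was higher, at 759 and 679 CPM in YKL libraries against 537 and 569 CPM in DMSO libraries, and Syp was slightly higher in both YKL libraries. Nkx2-1, a lung lineage transcription factor gene, was lower, at 168 and 201 CPM in YKL libraries against 403 and 408 CPM in DMSO libraries, and so was Insm1, while Ncam1, Uchl1 and Calca overlapped between groups. The part of these differences in the results below was not tested.

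Among the 9 tested genes, the first enzyme of serine synthesis and the mitochondrial enzyme that uses serine fell in YKL: Phgdh 3.91-fold and Shmt2 1.79-fold. The remaining 7 were not called, and none was called higher. The threshold for a call was 0.05 on the p of edgeR's quasi-likelihood test after Benjamini-Hochberg adjustment over all tested genes. Over all tested genes 1.44% were called lower and 3.54% were called in either direction. The groups did not overlap for 6 of the 9 genes, an arrangement found in 52.3% of all genes tested. Levels are counts relative to the library total (CPM), scaled between libraries by the trimmed mean of M values (TMM), so they are shares of a library's RNA. In such bulk samples, less RNA per cell and fewer cells that express a gene cannot be told apart.

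**Figure D1:**
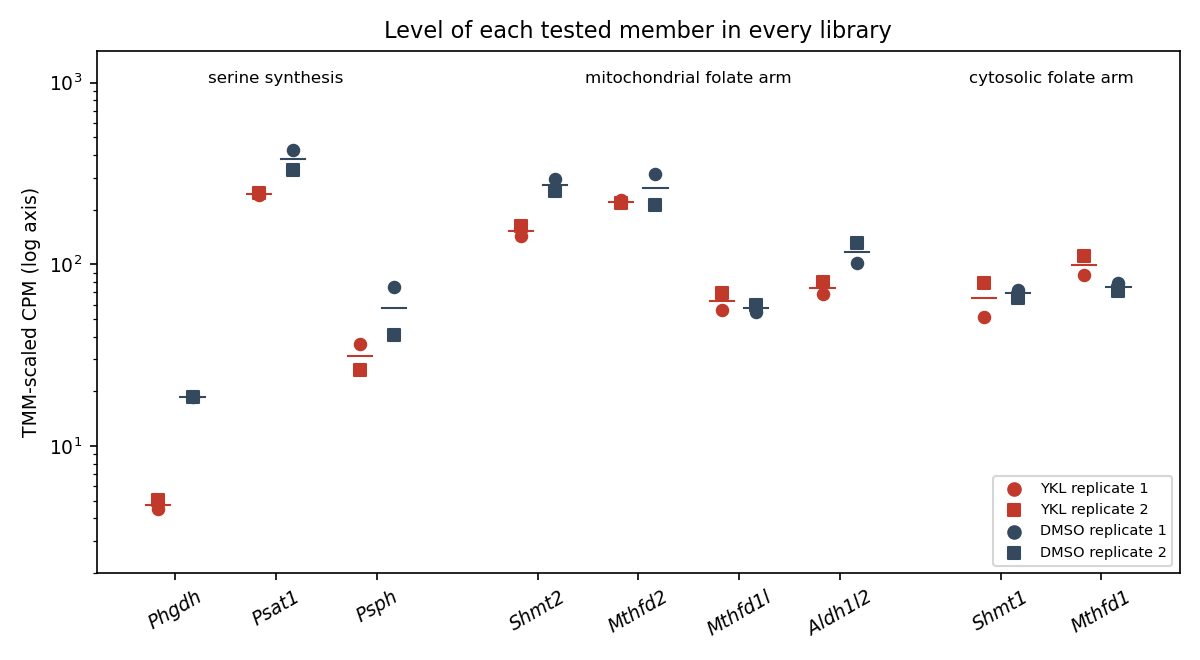
TMM-scaled CPM (log axis) of the 9 tested genes in the 2 YKL libraries (red, left of each pair) and the 2 DMSO libraries (dark, right), with horizontal lines at the group means. Phgdh shows the widest gap, with 4.47 and 5.03 CPM in YKL against 18.6 and 18.6 CPM in DMSO, whereas the points of Mthfd2, Mthfd1l and Shmt1 overlap between groups.

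Phgdh (ENSMUSG00000053398, chromosome 3, 98313170 to 98339990, mm10, minus strand) encodes phosphoglycerate dehydrogenase, which oxidises 3-phosphoglycerate and commits it to serine. It had 137 and 162 counts in YKL replicates 1 and 2, against 623 and 585 counts in DMSO replicates 1 and 2. In scaled units Phgdh averaged 4.75 ± 0.394 CPM in YKL and 18.6 ± 0.0436 CPM in DMSO (SD, n = 2 each). Both YKL libraries lay far below both DMSO libraries, and the libraries of each group were close together. The log2 fold change of Phgdh was -1.97 ± 0.30 (standard error), with a 95% interval from -2.63 to -1.30 and an edgeR adjusted p of 0.0141. The call ended when YKL replicate 1 was left out (-1.88, adjusted p = 0.0897) or YKL replicate 2 was (-2.06, adjusted p = 0.0771), fits in which the spread rests on the DMSO pair alone. No exon of Phgdh overlaps another gene, and its pseudogene Phgdh-ps1 had 0 counts in every library.

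Psat1 (ENSMUSG00000024640, chromosome 19, 15904678 to 15947337, minus strand) encodes phosphoserine aminotransferase, the second step, which takes its amino group from glutamate. It had 241 and 248 CPM in YKL libraries and 427 and 331 CPM in DMSO libraries. The YKL values were nearly equal and below both DMSO values, which differed from each other. Psat1 had a log2 fold change of -0.63 ± 0.19 with an interval from -1.06 to -0.20, and edgeR did not call it (adjusted p = 0.1). The log2 fold change was -0.84 without DMSO replicate 2 and -0.44 without DMSO replicate 1. Dropping the filter gave a call at -0.66 (edgeR adjusted p = 0.0407), in a fit that called 5.79% of its genes.

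Psph (ENSMUSG00000029446, chromosome 5, 129765558 to 129787449, minus strand) encodes phosphoserine phosphatase, which releases free serine in the last step. Its levels were 36.3 and 26.1 CPM in YKL libraries, against 74.5 and 40.9 CPM in DMSO libraries. The groups did not overlap, but DMSO replicate 2 lay close to YKL replicate 1. The log2 fold change of Psph was -0.89 ± 0.31 with an interval from -1.61 to -0.17, and it was not called by edgeR (adjusted p = 0.157). DESeq2 called it (-0.91, adjusted p = 0.0475), as did edgeR without the filter (-0.92, adjusted p = 0.00229). Those fits called 10.1% and 5.79% of their genes. The Psph value depended on the DMSO library used: the log2 fold change was -0.39 without DMSO replicate 1 and -1.29 without DMSO replicate 2. Psph shares 452 exonic bases, 10.4% of its exonic length, with Cct6a on the other strand, which had 7341 and 8055 counts in YKL and 14372 and 8340 counts in DMSO. Cct6a was thus also highest in DMSO replicate 1, and its part in the Psph values was not tested.

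All of the serine synthesis genes therefore had negative log2 fold changes, with 1 of the 3 called and a median of -0.89, beside a median of -1e-04 over all tested genes. That median was -0.44 without DMSO replicate 1 and -1.29 without DMSO replicate 2. Averaged over the 3 genes, the mean log2 CPM was 5.08 and 4.996 in YKL libraries and 6.39 and 5.98 in DMSO libraries.

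The promoters of Phgdh and Psat1, which encode the first steps, are shown beside those of Shmt2, the called gene of the mitochondrial arm, and Mthfd1, the cytosolic gene with a log2 fold change above 0. Each is the 250 bases before the RefSeq start (GRCm38.p6), 5′ to 3′ on the strand of the gene. Capitals mark CCAAT boxes in either orientation (CCAAT or ATTGG), the letters bound by NF-Y, and in Phgdh also a match to the antioxidant response element core TGACNNNGC, on the opposite strand. The windows are chr3:98339970-98340219 (minus) for Phgdh, chr19:15925060-15925309 (minus) for Psat1, chr10:127522445-127522694 (minus) for Shmt2 and chr12:76254982-76255231 (plus) for Mthfd1.
Phgdh: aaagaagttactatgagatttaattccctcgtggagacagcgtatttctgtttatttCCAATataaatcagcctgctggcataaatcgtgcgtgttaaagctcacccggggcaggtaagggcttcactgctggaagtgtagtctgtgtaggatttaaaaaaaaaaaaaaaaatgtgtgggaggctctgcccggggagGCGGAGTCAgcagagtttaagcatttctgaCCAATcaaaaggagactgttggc
Psat1: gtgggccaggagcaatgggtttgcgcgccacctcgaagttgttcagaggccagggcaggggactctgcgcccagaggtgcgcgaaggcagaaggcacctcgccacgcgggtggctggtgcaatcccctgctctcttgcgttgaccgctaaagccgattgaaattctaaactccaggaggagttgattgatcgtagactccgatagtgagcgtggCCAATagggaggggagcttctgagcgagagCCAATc
Shmt2: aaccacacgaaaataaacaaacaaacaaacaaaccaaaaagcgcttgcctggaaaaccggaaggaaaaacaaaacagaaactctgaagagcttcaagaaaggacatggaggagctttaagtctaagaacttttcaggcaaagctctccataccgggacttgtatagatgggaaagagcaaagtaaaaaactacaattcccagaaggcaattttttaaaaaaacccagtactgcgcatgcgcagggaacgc
Mthfd1: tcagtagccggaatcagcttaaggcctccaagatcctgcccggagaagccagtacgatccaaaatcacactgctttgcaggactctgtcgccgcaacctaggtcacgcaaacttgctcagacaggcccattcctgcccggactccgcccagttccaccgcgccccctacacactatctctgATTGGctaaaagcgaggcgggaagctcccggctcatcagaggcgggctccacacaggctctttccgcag

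Such windows were held for 9 of the 10 genes, with 2 for Psat1. For 8 of the 10 windows the bases after the start were found in a transcript of the gene. Of the 250 bases, 196 of the Psph window, 21 of the Phgdh window and 2 of the Mthfd2 window lie in an annotated untranslated region. The windows of Psat1, Mthfd2 and Shmt1 lie inside the span of the counted gene, which reaches further upstream. The window of Mthfd2l runs past the start of its gene's span. Matches in these windows may therefore lie within a transcript. CCAAT, searched on both strands, was found for 6 of these genes, namely Phgdh, Psat1, Psph, Mthfd2, Shmt1 and Mthfd1, and in 33.8% of all 32851 promoter windows of the same length. The antioxidant response element core was found for Phgdh alone and in 10.2% of all windows. The composite element TGATGNAA, read by ATF4 with C/EBP factors, the E-box CACGTG and the cAMP response element TGACGTCA had no match in the windows of these genes. They were found in 3.45%, 6.02% and 1.55% of all windows. Thus CCAAT boxes occurred in promoters of both called and uncalled genes, and Shmt2, which was called, had none in this window.

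Shmt2 (ENSMUSG00000025403, chromosome 10, 127517123 to 127522444, minus strand) encodes the mitochondrial serine hydroxymethyltransferase, which splits serine into glycine and a carbon carried by folate. Its levels were 143 and 163 CPM in YKL libraries, against 295 and 253 CPM in DMSO libraries. The groups were well separated, and Shmt2 averaged 153 ± 14.2 CPM in YKL and 274 ± 29.7 CPM in DMSO (SD, n = 2 each). Its log2 fold change was -0.84 ± 0.18 with an interval from -1.26 to -0.43, called by edgeR at an adjusted p of 0.0406. The call ended with total count scaling (adjusted p = 0.0545), upper quartile scaling (0.0502) and no robust prior (0.0649), and when YKL replicate 1 (0.291) or YKL replicate 2 (0.19) was left out, while the log2 fold change stayed between -0.94 and -0.75 in those fits. Only 32 bases of its exons overlap a gene on the other strand, Ndufa4l2, which had 30 and 31 counts in YKL and 25 and 23 in DMSO.

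Mthfd2 (ENSMUSG00000005667, chromosome 6, 83305691 to 83325908, minus strand) encodes the next mitochondrial enzyme, a dehydrogenase and cyclohydrolase that is high in embryos and many tumours. It had 225 and 216 CPM in YKL libraries and 313 and 213 CPM in DMSO libraries. DMSO replicate 1 stood above the other libraries, and DMSO replicate 2 was level with both YKL libraries. For Mthfd2 the log2 fold change was -0.25 ± 0.21 with an interval from -0.73 to 0.22 (edgeR adjusted p = 0.544), and without DMSO replicate 1 it was 0.05 (adjusted p = 0.918). Its isozyme Mthfd2l (ENSMUSG00000029376, chromosome 5, 90931117 to 91021368, plus strand) had 1 and 1 counts in YKL and 0 and 0 counts in DMSO. That is under a floor of 3 counts per library, about 0.0897 to 0.0979 CPM. Mthfd2l did not pass the filter on low counts and was not tested, and a difference was not detectable at this depth.

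Mthfd1l (ENSMUSG00000040675, chromosome 10, 3973118 to 4167081, plus strand) encodes the mitochondrial formyltetrahydrofolate synthetase, which releases formate. It had 56.2 and 69.8 CPM in YKL libraries and 54.9 and 59.5 CPM in DMSO libraries, and the groups overlapped. The log2 fold change of Mthfd1l was 0.14 ± 0.19, within an interval from -0.29 to 0.57 (edgeR adjusted p = 0.742), and it was -0.03 without YKL replicate 2. Aldh1l2 (ENSMUSG00000020256, chromosome 10, 83487450 to 83534140, minus strand) encodes the mitochondrial formyltetrahydrofolate dehydrogenase, which burns the carbon to carbon dioxide and makes NADPH. Its levels were 68.6 and 80.3 CPM in YKL libraries and 101 and 131 CPM in DMSO libraries, without overlap. The log2 fold change of Aldh1l2 was -0.64 ± 0.20 with an interval from -1.09 to -0.19 and was not called by edgeR (adjusted p = 0.108). It was -0.82 without DMSO replicate 1 and -0.48 without DMSO replicate 2. A call appeared when the filter was dropped (edgeR adjusted p = 0.0336), in a fit that called 5.79% of its genes. Aldh1l2 shares 1056 exonic bases, 14.1% of its exonic length, with D10Wsu102e on the other strand, which had 2869 and 4279 counts in YKL and 2582 and 1994 counts in DMSO.

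Of the mitochondrial arm, 1 of 4 tested genes was called, 3 had log2 fold changes below 0, and the median was -0.45. Shmt2 and Aldh1l2, which stand at the entry and at an exit of the arm, had the lower values, and Mthfd2 and Mthfd1l had intervals that include 0.

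In the cytosol, Shmt1 (ENSMUSG00000020534, chromosome 11, 60788104 to 60811718, minus strand) encodes the cytosolic serine hydroxymethyltransferase. It had 51.1 and 79.0 CPM in YKL libraries and 72.6 and 65.6 CPM in DMSO libraries. The YKL libraries lay on either side of the DMSO pair. Its log2 fold change was -0.09 ± 0.23 with an interval from -0.60 to 0.43 (edgeR adjusted p = 0.878), and it was 0.20 without YKL replicate 1. Mthfd1 (ENSMUSG00000021048, chromosome 12, 76255298 to 76319803, plus strand) encodes the cytosolic trifunctional enzyme that turns formate back into folate-bound carbon. It had 87.5 and 111 CPM in YKL libraries, above the 79.2 and 71.6 CPM of the DMSO libraries. Mthfd1 had a log2 fold change of 0.40 ± 0.19 with an interval from -0.04 to 0.84 and was not called (edgeR adjusted p = 0.275), nor was it in any of the 11 alternatives. Neither of the 2 cytosolic genes was called by edgeR or DESeq2 and 0 had an unadjusted p under 0.05, and their median was 0.16, or -0.11 without YKL replicate 2 and 0.38 without YKL replicate 1.

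**Figure D2:**
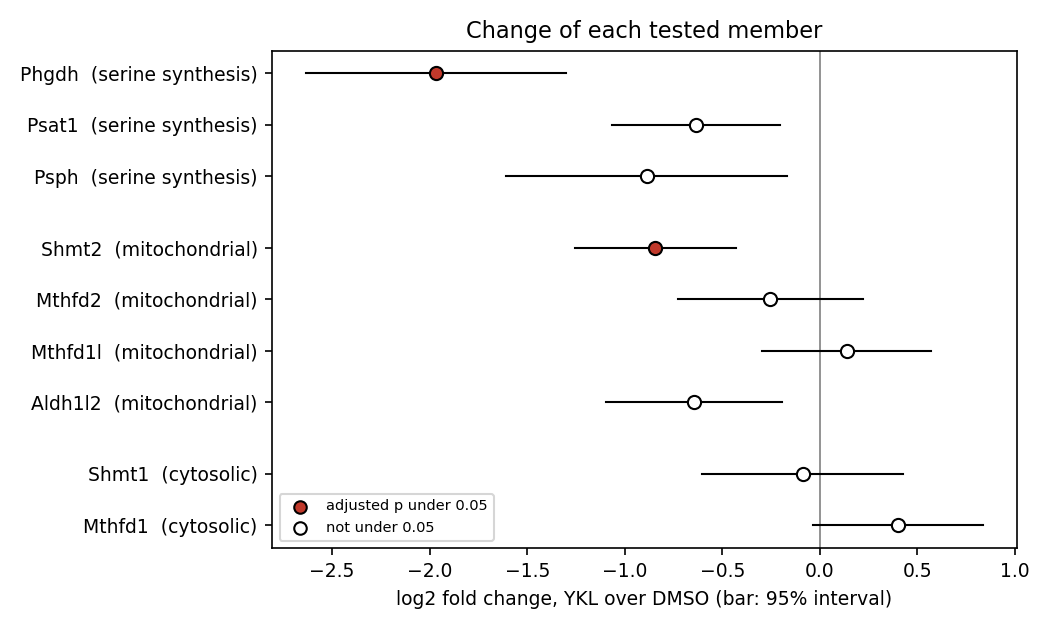
Log2 fold change of YKL over DMSO for the 9 tested genes, ordered by arm, with bars for the 95% interval of edgeR's quasi-likelihood fit and filled points for an adjusted p under 0.05. Phgdh (-1.97) and Shmt2 (-0.84) are filled, and the intervals of Mthfd2, Mthfd1l, Shmt1 and Mthfd1 include 0.

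Levels between genes were compared as CPM per kilobase of exonic length. In YKL libraries the order of mean levels was Mthfd2 (63.2), Psat1 (57.4), Shmt2 (49.2), Mthfd1 (22.4), Shmt1 (16.8), Mthfd1l (14.2), Aldh1l2 (9.92), Psph (7.21) and Phgdh (1.91). In DMSO libraries it was Psat1 (89.1), Shmt2 (88.3), Mthfd2 (75.4), Shmt1 (17.8), Mthfd1 (16.97), Aldh1l2 (15.5), Psph (13.3), Mthfd1l (12.9) and Phgdh (7.48). The same genes, Psat1, Shmt2 and Mthfd2, led in both groups, and Phgdh was lowest of the tested genes in both. Within each DMSO library Mthfd2 was the lowest of these leading genes, at 89.7 and 61.0 CPM per kilobase, whereas Psat1 (100.4 and 77.8) and Shmt2 (95.04 and 81.5) changed places between the libraries. Within each YKL library Mthfd2 was the highest, at 64.4 and 62.0, followed by Psat1 at 56.6 and 58.2 and Shmt2 at 46.0 and 52.4 CPM per kilobase.

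Ratios of partner enzymes within a library do not depend on scaling between libraries. The transcript ratio of mitochondrial Shmt2 to cytosolic Shmt1, per kilobase, was 3.49 and 2.58 in YKL libraries, against 5.08 and 4.82 in DMSO libraries. Both YKL ratios were lower, and the difference of the mean log2 ratios (YKL minus DMSO) was -0.72. For Mthfd2 over Mthfd1 the ratio was 3.27 and 2.47 in YKL libraries and 5.03 and 3.79 in DMSO libraries, a log2 difference of -0.62. For Mthfd1l over Mthfd1 it was 0.643 and 0.627 in YKL libraries and 0.695 and 0.833 in DMSO libraries, a log2 difference of -0.26. In each of these mitochondrial to cytosolic pairs the YKL libraries were lower than both DMSO libraries, but the pairs are not independent, since the last ones share Mthfd1 as denominator. The log2 fold changes given above were 0.40 for Mthfd1 and 0.14 for Mthfd1l, so the lower ratio of this pair goes with higher Mthfd1 values and not with lower Mthfd1l values. For Mthfd2 over Mthfd1 they were -0.25 for Mthfd2 and 0.40 for Mthfd1, neither called and both with intervals that include 0. The lower Mthfd2 ratio thus does not by itself show lower Mthfd2.

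Within serine metabolism, Phgdh over Shmt2, which shares Shmt2 with the first pair, was 0.0391 and 0.0386 in YKL libraries, against 0.0788 and 0.0916 in DMSO libraries. The log2 difference was -1.13, and both YKL libraries had less Phgdh relative to Shmt2 than either DMSO library. Psat1 over Psph was 6.75 and 9.65 in YKL libraries and 5.83 and 8.24 in DMSO libraries, and the groups overlapped (log2 difference 0.22, and -0.03 without DMSO replicate 1). In an exact two-sided permutation test over the 4 libraries, the p was 0.333 for each of the 4 ratios without overlap and 0.667 for Psat1 over Psph (0.416 and 0.667 after Benjamini-Hochberg adjustment over these 5 ratios). With 2 libraries against 2, 0.333 is the smallest p possible, so none of these differences could pass a threshold of 0.05.

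**Figure D3:**
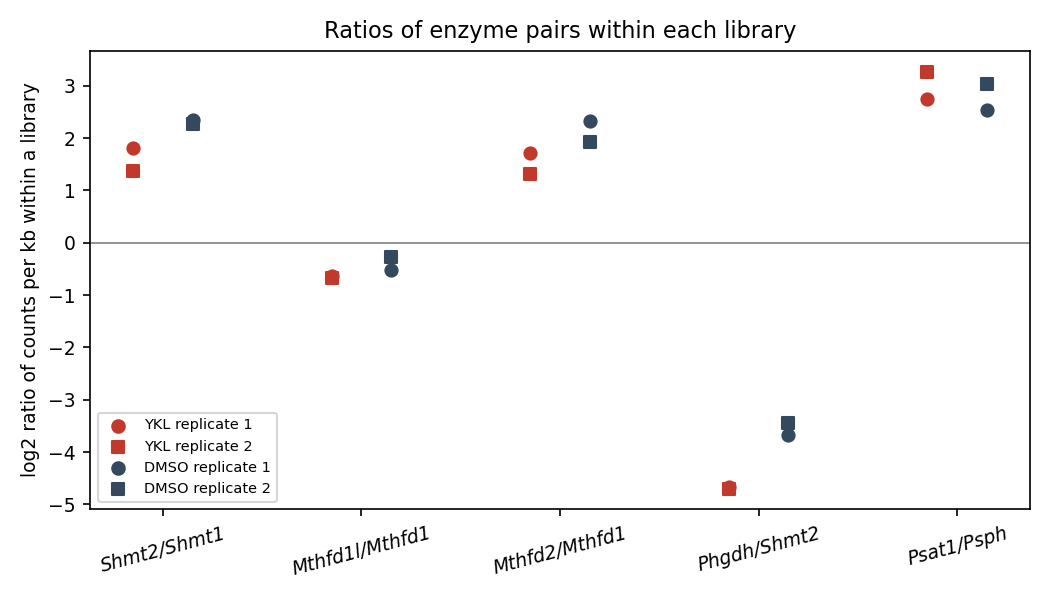
Log2 ratio of counts per kilobase for 5 pairs of genes within each library, YKL (red) left of DMSO (dark), with the line at 0 marking equal levels. For Shmt2/Shmt1, Mthfd1l/Mthfd1, Mthfd2/Mthfd1 and Phgdh/Shmt2 both YKL points lie under both DMSO points, and for Psat1/Psph they overlap.

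In the authors' deposited table of their own DESeq2 comparison, 9 of the 10 genes were listed, with the same sign as here for all 9. There, 5 had an adjusted p under 0.05, with log2 fold changes of -1.64 for Phgdh, -0.81 for Shmt2, -0.80 for Psph, -0.61 for Psat1 and -0.60 for Aldh1l2. Of all 15936 genes in the authors' deposited table, 27.8% had an adjusted p under 0.05. The authors' comparison used the same libraries, so the shared signs are not independent evidence. DESeq2 as run here did not call Psat1 (adjusted p = 0.0512) or Aldh1l2 (adjusted p = 0.0601).

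Related genes were grouped into 6 lists, 5 of the surrounding pathway and its regulators and 1 of ATF4 targets outside it. In the 5 lists of the surrounding pathway, 40 of 47 genes were tested, 3 fell and 3 rose, and the median log2 fold change was -0.09. With the ATF4 targets, which held 8 of the 11 lower calls, 55 of 62 were tested, 11 fell and 3 rose, and the median was -0.25. These lists were written with earlier results of the same data in view. Beside them, 1.44% of all tested genes were called lower and 2.1% higher.

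Among genes of folate uptake and other folate enzymes, 11 of 14 were tested, 1 rose and 1 fell, and the median log2 fold change was 0.10.

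Of the glycine cleavage system, which breaks glycine down in mitochondria, all 4 genes were tested and none was called by edgeR or DESeq2 (0 at an unadjusted p under 0.05), with a median log2 fold change of -0.10. Its most abundant gene Dld, a dehydrogenase shared with other complexes, had 124 and 147 CPM in YKL libraries and 141 and 122 CPM in DMSO libraries, which overlapped. In the methionine cycle and transsulfuration list 11 of 13 were tested, 1 rose and none fell, with a median of -0.15. The gene that rose was Mtap, which salvages methionine from methylthioadenosine. It had 60.5 and 67.5 CPM in YKL libraries and 33.3 and 35.8 CPM in DMSO libraries (log2 fold change 0.89 ± 0.19, edgeR adjusted p = 0.0384), a call that ended in 5 of the 11 alternatives, including without either YKL library.

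For serine transport and use, 9 of 11 genes were tested, 2 fell and 1 rose, with a median log2 fold change of -0.18. The glycine transporter gene Slc6a9 fell to 8.16 and 7.51 CPM in YKL libraries, against 34.3 and 29.8 CPM in DMSO libraries (log2 fold change -2.03 ± 0.25, edgeR adjusted p = 0.00795), and was called in all 11 alternatives. Slc1a4, which carries serine and alanine, had 66.1 and 62.3 CPM in YKL libraries and 175 and 125 CPM in DMSO libraries (log2 fold change -1.22 ± 0.21, edgeR adjusted p = 0.0217). Its relative Slc1a5, a glutamine transporter that also carries serine, moved the other way, with 138 and 163 CPM in YKL libraries and 79.2 and 92.2 CPM in DMSO libraries (log2 fold change 0.81 ± 0.19, edgeR adjusted p = 0.0496). The call of Slc1a4 ended without YKL replicate 1 or YKL replicate 2. That of Slc1a5 ended in 6 of the 11 alternatives, namely total count and upper quartile scaling, no robust prior, and leaving out YKL replicate 1, YKL replicate 2 or DMSO replicate 1.

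None of the 5 tested transcriptional regulators of the pathway was called by edgeR, 1 had an unadjusted p under 0.05 and DESeq2 called that 1, and their median log2 fold change was -0.09. Atf4, the transcription factor named above, had 182 and 103 CPM in YKL libraries and 454 and 275 CPM in DMSO libraries. The groups did not overlap, both pairs were spread widely, and the log2 fold change of -1.36 ± 0.35 was not called by edgeR (adjusted p = 0.0998). Atf4 was called by DESeq2 (adjusted p = 0.000626), by edgeR without the filter and by edgeR with the replicate block. Those fits called 10.1%, 5.79% and 8.28% of their genes, against 3.54% in the main fit. With 1 library left out, the log2 fold change of Atf4 ran from -1.83 to -0.95. The MYC family, which drives growth metabolism, showed no called change. Myc had 15.4 and 17.6 CPM in YKL libraries and 14.98 and 17.5 CPM in DMSO libraries. Mycl, often amplified in SCLC, had 271 and 448 CPM in YKL libraries and 398 and 366 CPM in DMSO libraries. Mycn was low, at 5.78 and 3.38 CPM in YKL libraries and 5.02 and 5.71 CPM in DMSO libraries.

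Of 15 ATF4 targets outside the pathway, all tested, 8 fell and none rose, and the median log2 fold change was -0.95. Over all tested genes 1.44% were called lower and 2.1% higher. This list, too, was written with earlier results of the same data in view. Eif4ebp1, a repressor of cap-dependent translation, had 17.2 and 18.5 CPM in YKL libraries and 78.1 and 80.2 CPM in DMSO libraries (log2 fold change -2.15 ± 0.19, edgeR adjusted p = 0.00326). Asns, which makes asparagine, had 164 and 199 CPM in YKL libraries and 415 and 359 CPM in DMSO libraries (log2 fold change -1.09 ± 0.19, edgeR adjusted p = 0.0223), a call that ended without either YKL library. Aldh18a1, the first enzyme of proline synthesis, had a log2 fold change of -1.58 ± 0.19, and Slc7a11, the cystine transporter, one of -2.66 ± 0.38. Aldh18a1 stood at 44.2 and 42.2 CPM in YKL libraries and 141 and 117 CPM in DMSO libraries. Slc7a11 stood at 2.12 and 2.20 CPM in YKL libraries and 16.5 and 10.9 CPM in DMSO libraries, and its call ended without either YKL library.

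**Figure D4:**
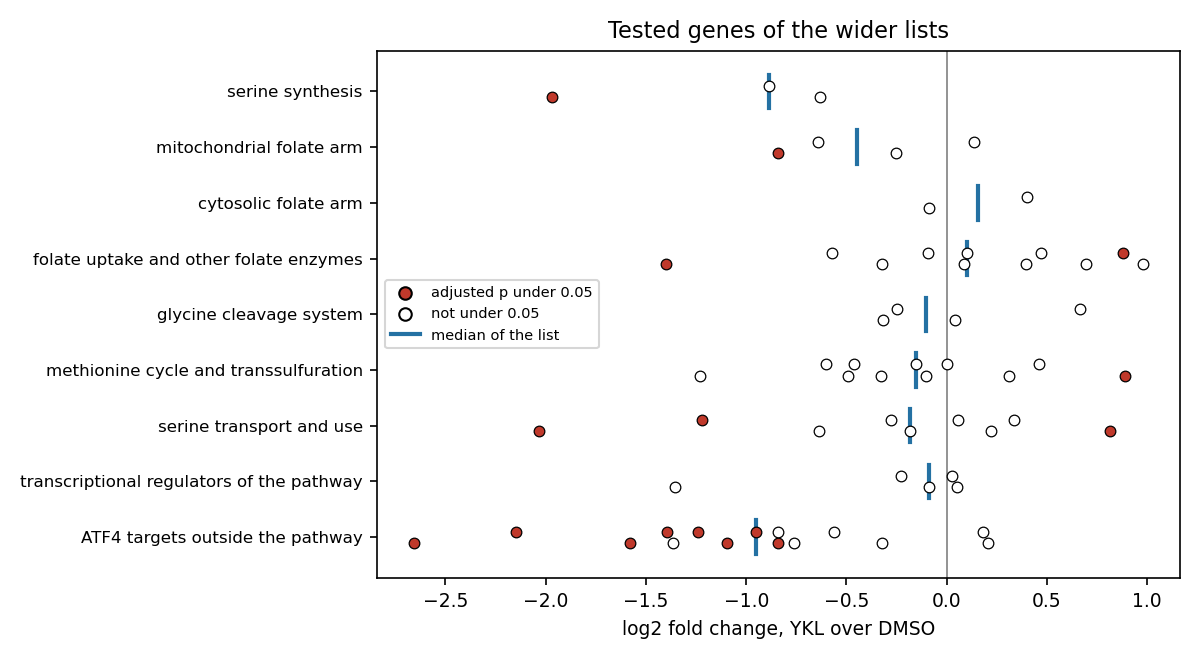
Log2 fold change of YKL over DMSO for every tested gene of the serine and folate arms and of the 6 wider lists, with filled points for an adjusted p under 0.05 and a bar at the median of each list. The medians are -0.89 for serine synthesis, -0.45 for the mitochondrial arm, 0.16 for the cytosolic arm and -0.95 for ATF4 targets outside the pathway.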

How the data were processed

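Bulk RNA-seq libraries of 2 YKL and 2 DMSO samples were compared. The deposited table held raw counts per gene, made by the authors with STAR 2.5.2b on mm10 and featureCounts, per the submitters' processing notes. The strand setting and annotation are not given in the sources used here, so reads of overlapping genes cannot be assigned with certainty. The authors also deposited a DESeq2 table with a mean normalized signal, log2 fold changes, a test score and p-values, and the fold changes there may be shrunken. Symbols came from the deposited annotation and promoters from RefSeq.

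Counts were tested with edgeR 4.0.16 (R 4.3.3): filterByExpr (minimum count 10, minimum total 15), TMM scaling and the robust quasi-likelihood test on 2 residual degrees of freedom, with Benjamini-Hochberg adjustment over 16749 genes. Standard errors are the absolute log2 fold change over the square root of F. Alternatives tried were scaling by RLE, by total count and by upper quartile, testing without the filter, a replicate block, no robust prior, DESeq2 1.42.0 and each library left out. Precision is limited by the 2 libraries per group: the common biological coefficient of variation was 25%, and libraries of a pair differed beyond sampling noise (chi-square per degree of freedom 37.1 for YKL and 86.6 for DMSO). In 3 runs of simulated data for YKL against DMSO, 200 genes were changed among a median of 16353 tested. The share of changed genes recovered was 35.4% at 2-fold and 84.8% at 4-fold, with false calls making up 15.3%. These shares depend on how many genes change, which is unknown for the data, where 593 were called. The genes and lists were chosen with earlier results of these data known. All 10 symbols were named, with up to 4 called genes per wider list by smallest p, or its most abundant gene per length, and Atf4, Myc, Mycl and Mycn. Some called genes of the wider lists and a cell type marker are not reported here.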

Additional observations from a re-analysis of the deposited data

How the results depend on the processing

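Instead of 593 genes, 169 were called with total count scaling, 331 with upper quartile scaling, 236 without the robust prior, 1740 without the filter and 1460 by DESeq2, and between 71 and 2453 with 1 library left out. Of the 10 serine and folate genes, 2 were called with all libraries, 1 each with total count scaling, upper quartile scaling and no robust prior, 5 without the filter, and between 0 and 4 with 1 library left out. Of the wider lists 14 were called, but 6, 8 and 7 with total count scaling, upper quartile scaling and no robust prior, and between 3 and 19 with 1 library left out. As a share of the genes tested, the main fit called 3.54%, total count scaling 1.01%, upper quartile scaling 1.98% and no robust prior 1.41%. The fit without the filter called 5.79% of 30066 genes, and DESeq2 called 10.1% of 14435. The medians ran from -1.29 to -0.44 for serine synthesis, from -0.51 to -0.34 for the mitochondrial arm and from -0.11 to 0.38 for the cytosolic arm with 1 library left out. With 1 library left out, log2 fold changes that changed sign ran from -0.54 to 0.053 for Mthfd2, from -0.029 to 0.29 for Mthfd1l, from -0.44 to 0.20 for Shmt1, from -0.093 to 0.16 for Dld, from -0.077 to 0.12 for Myc, from -0.50 to 0.23 for Mycl and from -0.66 to 0.10 for Mycn. Over 264 values of named genes under alternatives, 211 kept direction and call, 31 lost the call, 13 gained it and 9 changed sign, each a gene that was not called. Cause was not tested for these changes, except that fits without a YKL library take their spread from the DMSO pair alone. Fits without a DMSO library take it from the YKL pair alone. The replicate numbers were shared between groups, with a correlation of deviations of 0.152 over a single pairing, which does not show that they pair the libraries. With the replicate block 1387 genes (8.28%) were called in all. The serine and folate genes called by edgeR in that fit were Phgdh, Shmt2 and Psph (-0.84, adjusted p = 0.017), while Atf4 was also called (-1.37, adjusted p = 0.00048). DESeq2 likewise called 3 of the serine and folate genes. The ratio of Mthfd2 to Mthfd2l was not computed, since Mthfd2l had 0 counts in DMSO. Among the serine and folate genes, only Mthfd2l did not pass the filter on low counts.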

Other observations

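Of the 9 tested serine and folate genes, 7 were higher in DMSO replicate 1 than in DMSO replicate 2, while 2 were higher in YKL replicate 1 than in YKL replicate 2. Psph and Mthfd2 had the widest ratios between the DMSO libraries in the CPM values above, and Atf4 was also higher in DMSO replicate 1.

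Further genes of the lists, named here after their values were seen, were as follows. Tyms, the thymidylate synthase that uses folate carbon, had 367 and 303 CPM in YKL libraries and 229 and 111 CPM in DMSO libraries (log2 fold change 0.98 ± 0.34, edgeR adjusted p = 0.177, not called). The authors' own DESeq2 comparison, with 27.8% of its genes under 0.05, gave Tyms 0.94 (adjusted p = 7.06e-06). Of the ATF4 targets, Pycr1, which completes proline synthesis, fell to 20.2 and 25.8 CPM in YKL libraries, against 44.7 and 63.9 CPM in DMSO libraries (edgeR adjusted p = 0.0307). Trib3, Chac1 and Atf5 fell as well, with log2 fold changes of -0.95, -1.39 and -0.84 (edgeR adjusted p = 0.0411, 0.0462 and 0.0466, near the threshold). Whether each of these calls and that of Pycr1 held under the alternatives was not examined gene by gene. Of the 15 ATF4 targets as a list, DESeq2 called 10 and edgeR without the filter 11, against 8 in the main fit. Those 2 fits called 10.1% and 5.79% of all their genes. Atf3 and Cebpb of the same list had log2 fold changes above 0, at 0.21 and 0.18, and were not called.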
